A study of Mus musculus with 6 samples.

Results

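The genes of glycolysis and of the response to low oxygen were examined in mammary cells sorted as endothelium. They came from mice with or without Ets2 in their fibroblasts. The set of 38 genes was given by name and covers glucose transporters, glycolytic enzymes, lactate handling, targets of the hypoxia-inducible factors (HIF) and the HIF machinery itself. A gene counted as measured when at least 1 probe set of the array was annotated with that gene and no other, and it was represented by its brightest probe set on average. By this rule 35 members had a tested probe set, among 18193 genes represented in all. Gapdh was covered only by probe sets that the manufacturer placed on the array as controls, which were read separately. No probe set used here named Gpi1 or Eno1 alone, and both were not analysed here.

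Endothelial cells had been isolated from mammary glands of FVB/N mice aged 9 weeks by sorting for CD31, a surface protein of endothelium, and RNA was profiled on Affymetrix mouse arrays. All mice carried PyMT, a viral oncogene driven in the mammary epithelium, together with 1 knockout allele of Ets2 lacking a functional DNA-binding domain (Ets2db) and 1 allele flanked by loxP sites, so that the controls also had only a single intact copy of Ets2 in every cell. The 3 control samples were PyMT;Ets2db/loxP. The 3 deleted samples were PyMT;Fsp-cre;Ets2db/loxP, in which the Cre recombinase was driven by the promoter of fibroblast-specific protein 1 and removed the remaining allele where that promoter was active. For the controls, the source field reads as if the oncogene were absent, but their title, description and genotype name PyMT, and the genotype was used. Every difference below is on the log2 scale and is positive where deleted samples were higher.

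Glycolysis splits glucose into pyruvate, and endothelial cells draw much of their energy from it even where oxygen is available. Under low oxygen, the HIF alpha subunits escape hydroxylation by the Egln prolyl hydroxylases and capture by the Vhl ubiquitin ligase, pair with Arnt and bind hypoxia response elements with the core letters ACGTG or GCGTG. Many genes of glucose uptake, glycolysis and lactate export are HIF targets, as are Car9, Bnip3, Ankrd37 and the collagen prolyl hydroxylases.

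Defining markers of endothelium were bright on all arrays, and the means of all 15 lay above the median signal of all probe sets, 7.03. Markers of some other cells were bright as well. Those of skeletal muscle and adipocytes were not, with 0 of 10 and 1 of 8 above that median. The 16 epithelial markers averaged 11.89 to 12.16 per control array and 11.68 to 12.20 per deleted array, and the milk protein gene Csn3 averaged 14.65 with an SD of 0.02 over the 3 controls and 14.62 with an SD of 0.06 over the 3 deleted samples. The endothelial markers averaged 11.97 to 12.26 per control array and 12.08 to 12.42 per deleted array, close to the epithelial ones. The values of the members are therefore those of the sorted samples as a whole and not of endothelial cells alone. Fewer cells of a type and less RNA per cell cannot be told apart in such samples. Control replicate 3 stood apart. It lay at 70.2 on the first principal component, where the other arrays lay between -37.1 and 35.8, and the 3' probe set of Gapdh exceeded the 5' one by 1.31 there against 0.752 to 1.01 elsewhere. The text or the closing section gives the range of the difference with each array left out in turn. These ranges cover tested members with values on every array at their brightest probe set, and not Gapdh or dimmer probe sets.

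The core letters of hypoxia response elements were more frequent in promoters of the members than in those of all genes. The set was given by name and holds many HIF targets, so this share is not independent of the choice of genes. Promoter windows of 300 bases, from 250 before to 50 after each start, were taken from RefSeq (GRCm38.p6) and held at least 1 start for 36 members. None was listed for Slc2a3 or Epas1. The core ACGTG, searched on both strands so that CACGT counted too and a palindromic CACGTG counted on each strand, was found in a window of 24 of these 36 members (66.7%) and in one of 21.8% of all genes with a window. By window, 54% of the 50 member windows and 19.6% of all 32851 held it, and with GCGTG added on both strands the shares were 82% and 43.8%. A match describes letters and not a site bound by HIF.

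The 200 bases before the start are shown for Car9 and P4ha1, the members with the largest differences in either direction, and for Pgk1 and Ldha, enzymes of glycolysis and lactate formation that differed little. Capitals mark ACGTG and GCGTG cores on either strand. The windows are chr4:43506826-43507025 for Car9, chr10:59323096-59323295 for P4ha1, chrX:106186900-106187099 for Pgk1 and chr7:46845604-46845803 for Ldha, all on the plus strand of GRCm38.p6.
Car9: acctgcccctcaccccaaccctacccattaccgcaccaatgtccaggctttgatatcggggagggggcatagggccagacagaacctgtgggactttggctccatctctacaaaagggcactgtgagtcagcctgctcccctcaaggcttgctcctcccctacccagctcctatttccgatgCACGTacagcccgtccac
P4ha1: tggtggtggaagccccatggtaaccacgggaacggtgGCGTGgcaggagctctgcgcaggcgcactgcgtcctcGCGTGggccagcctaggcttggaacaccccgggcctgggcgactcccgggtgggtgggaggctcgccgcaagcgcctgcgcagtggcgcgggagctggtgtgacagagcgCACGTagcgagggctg
Pgk1: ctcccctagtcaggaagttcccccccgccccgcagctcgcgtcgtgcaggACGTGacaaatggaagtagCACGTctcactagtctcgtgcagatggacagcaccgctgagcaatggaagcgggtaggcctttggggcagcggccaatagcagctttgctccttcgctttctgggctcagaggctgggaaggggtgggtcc
Ldha: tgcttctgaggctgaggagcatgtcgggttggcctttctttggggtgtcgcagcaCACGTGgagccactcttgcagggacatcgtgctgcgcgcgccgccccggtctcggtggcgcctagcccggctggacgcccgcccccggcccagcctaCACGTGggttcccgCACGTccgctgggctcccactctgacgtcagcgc
Car9 and P4ha1 both carried ACGTG on the opposite strand close to the start, with its first letter as printed 18 and 16 bases before it, and P4ha1 had 2 GCGTG cores further upstream. The cores of Pgk1 lay 150 and 131 bases before the start. Ldha held 2 palindromic CACGTG motifs and a single CACGT. Car9 and P4ha1 had been chosen for their differences of opposite sign, so the core they share shows nothing about direction.

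None of the measured glycolysis and hypoxia-response genes passed limma's test of the difference between the groups after adjustment. No member had an adjusted p under 0.05 (Benjamini-Hochberg over all 45037 probe sets), where 0% of all probe sets were called and the smallest adjusted p was 0.9999. Of the 35 members, 22 had a positive and 13 a negative difference, with a median of 0.04 (0.11 without control replicate 3 and 0.02 without deleted replicate 1), and over all genes 50.9% were positive with a median of 0.00. The differences ran from -0.80 for Car9 to 0.43 for P4ha1, only 5 exceeded 0.25 in size and only Car9 exceeded 0.5. The median size of the difference was 0.13 for the members and 0.11 for all genes.

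A single member, Car9, had an unadjusted p under 0.05, 1 of 35 against 1.79% of all genes. None combined such a p with a change of more than 2-fold, which 0.0934% of all genes did. The 95% interval of the difference lay within -1 to 1, a change of less than 2-fold in either direction, for 30 of 35 members, and for 89.5% of all genes. For 17 members it lay within a change of 1.5-fold in either direction, and the share of all genes at this limit was not computed. The median SE was 0.19 for the members and 0.18 for all genes. The groups did not overlap for 2 members that were higher in deleted samples, P4ha1 and Pfkfb4, and for 1 that was lower, Car9. Over all genes 3.36% were higher and 2.7% lower without overlap.

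**Figure D1:**
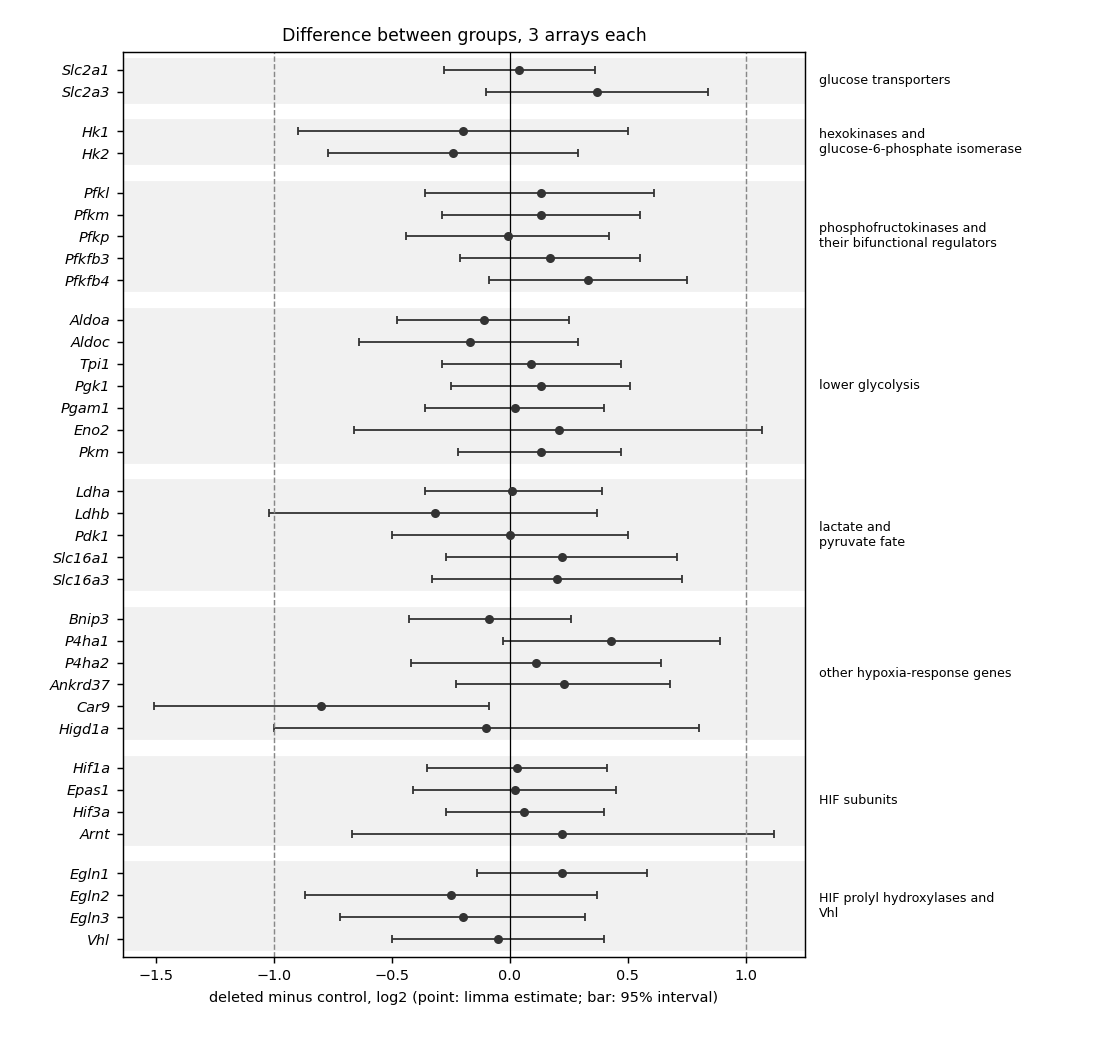
Difference of log2 signal between deleted and control samples (horizontal axis) for the 35 members with a tested probe set, grouped by role. Points are limma estimates from 3 arrays per group, bars are 95% intervals and dashed lines mark -1 and 1, and only the bar of Car9, from -1.51 to -0.09, leaves out 0.

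Among the glucose transporters, Slc2a1 was nearly level and Slc2a3 was above all controls in deleted replicates 1 and 3. Slc2a1, which encodes the widespread transporter GLUT1, read 13.23, 13.22 and 13.37 in control replicates 1 to 3 and 13.37, 13.19 and 13.37 in deleted replicates 1 to 3. The arrays of both groups thus spanned the same narrow range. The difference was 0.04 with a 95% interval from -0.28 to 0.36, with 0.02 and 0.06 at the remaining 2 Slc2a1 probe sets. Slc2a3, the high-affinity transporter GLUT3, read 8.61, 8.52 and 8.26 in control and 8.79, 8.55 and 9.17 in deleted replicates. Deleted replicate 3 was the highest, and deleted replicate 2 lay among the controls. The difference was 0.37 (SE 0.20), and it was 0.20 without deleted replicate 3, 0.27 without control replicate 3 and 0.51 without deleted replicate 2 (limma's unadjusted p = 0.0409). All 4 Slc2a3 probe sets had a positive difference, from 0.23 to 0.37. Those at 0.23 and 0.36 read below 5 on every array, near the lower end of the scale.

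Hexokinases trap glucose in the cell by phosphorylation, and both were nominally lower in deleted samples. Hk1 read 10.61, 10.70 and 11.65 in control and 10.83, 11.01 and 10.52 in deleted replicates. Control replicate 3 was far above the other 5 arrays, which overlapped. The difference of -0.20 (SE 0.30) became 0.13 without control replicate 3, and the second Hk1 probe set differed by 0.11. Hk2, the inducible hexokinase and a HIF target, read 8.76, 8.77 and 9.24 in control and 8.54, 8.44 and 9.08 in deleted replicates. The third array was the highest of each group, and the groups overlapped. The difference of -0.24 (SE 0.23) was -0.08 without control replicate 3 and -0.43 without deleted replicate 3.

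The phosphofructokinases set the pace of glycolysis, and Pfkfb3 and Pfkfb4 make and break down their activator, fructose-2,6-bisphosphate. Pfkl, Pfkm and Pfkp, which encode the liver, muscle and platelet subunits, differed by 0.13, 0.13 and -0.01. Pfkfb3, a regulator of glycolysis in sprouting endothelium, read 9.73, 9.66 and 9.75 in control and 9.96, 9.61 and 10.08 in deleted replicates. The controls were tightly grouped, and deleted replicate 2 lay below all of them. The difference was 0.17 (SE 0.16), ranging from 0.07 to 0.31 when deleted replicate 3 or 2 was left out, and the dimmer Pfkfb3 probe set also differed by 0.17. Pfkfb4 read 6.01, 5.90 and 5.48 in control and 6.22, 6.04 and 6.12 in deleted replicates. No deleted array fell among the controls, but deleted replicate 2 lay just above control replicate 1, and all values were below the median signal. The difference was 0.33 (SE 0.18, 95% interval -0.09 to 0.75), and 0.17 without control replicate 3. A dim second probe set of Pfkp, read as 6.35, 6.49 and 5.70 in control and 6.81, 6.73 and 6.58 in deleted replicates, differed by 0.53 without overlap, whereas the brightest Pfkp probe set differed by -0.01.

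Of the 7 measured genes of lower glycolysis, from aldolase to pyruvate kinase, 5 had a positive and 2 a negative difference. Pgk1, phosphoglycerate kinase, read 12.94, 13.05 and 13.02 in control and 13.22, 13.32 and 12.87 in deleted replicates. Deleted replicate 3 was the lowest of all 6 arrays and the other deleted arrays the highest. The difference was 0.13 (95% interval -0.25 to 0.51), with 0.10 and 0.11 at the other Pgk1 probe sets, and it was 0.04 without deleted replicate 2 and 0.27 without deleted replicate 3. Aldoa, the main aldolase, differed by -0.11, and its other 4 probe sets by -0.35 to 0.03. Tpi1, Pgam1 and Pkm, encoding triosephosphate isomerase, phosphoglycerate mutase and pyruvate kinase, differed by 0.09, 0.02 and 0.13, and each of the 3 intervals lay within -0.36 to 0.47. Aldoc, an aldolase best known from brain, differed by -0.17.

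Eno2, the neuronal enolase and a HIF target, had the widest spread of these among control arrays. It read 9.55, 7.96 and 8.62 in control and 8.87, 8.97 and 8.91 in deleted replicates. The controls spread on both sides of the deleted arrays, which were nearly level. The difference was 0.21 (SE 0.37), and it was 0.63 without control replicate 1 (limma's unadjusted p = 0.0323) and -0.17 without control replicate 2. Gapdh, glyceraldehyde-3-phosphate dehydrogenase, was read from the 3 array-control probe sets. At the 3' end it read 13.75, 14.02 and 14.31 in control and 13.83, 14.16 and 13.85 in deleted replicates. At the 5' end all arrays lay between 12.82 and 13.31, the lowest and highest being deleted replicates 1 and 2. The high 3' value of control replicate 3 had no counterpart at its 5' end, where that array equalled control replicate 1. The differences were -0.08 at the 3' end, 0.03 in the middle and 0.02 at the 5' end, with SE between 0.17 and 0.19 in a limma fit that kept the array controls.

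**Figure D2:**
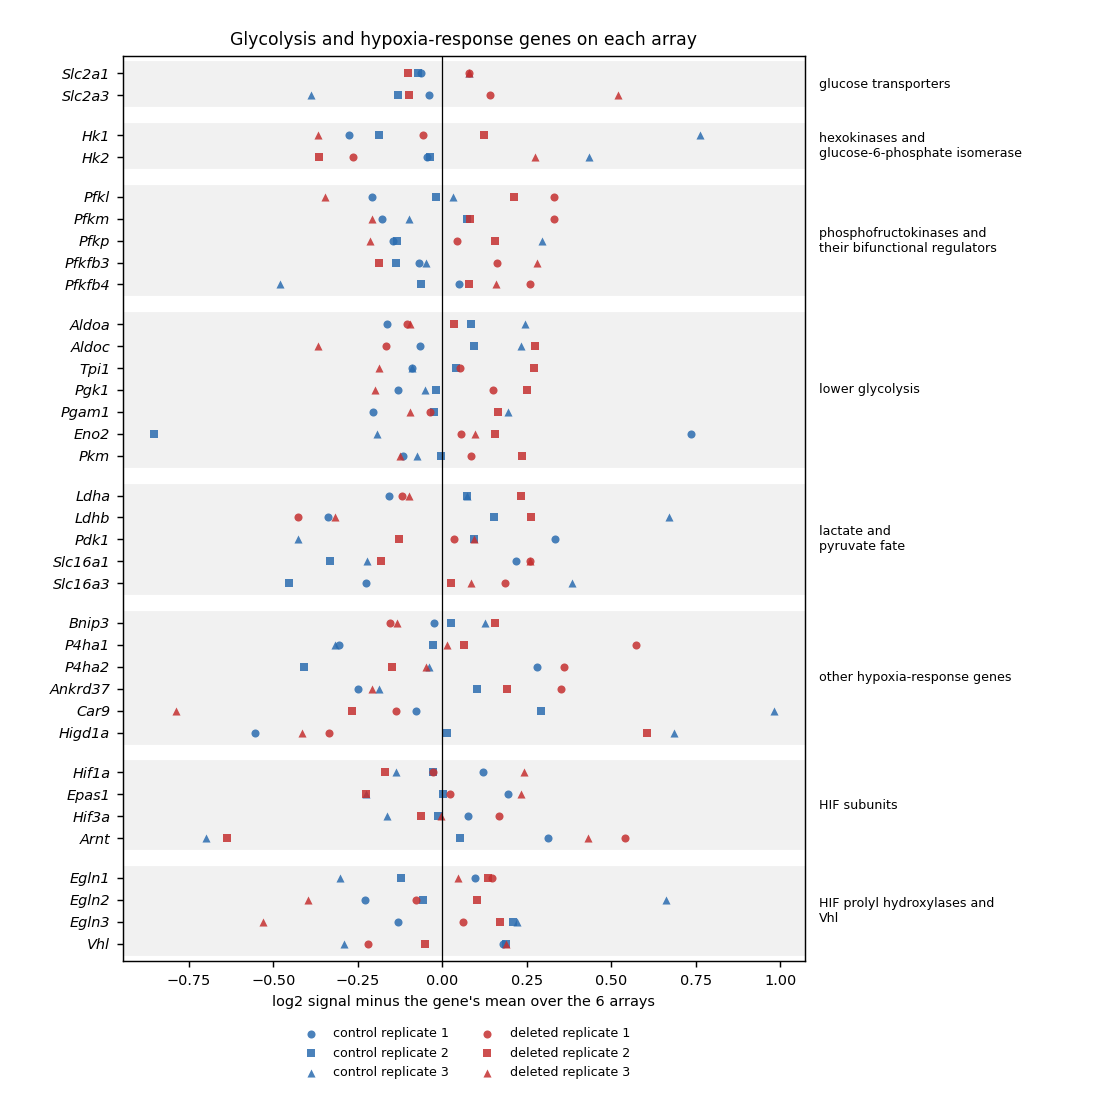
Log2 signal of each member on each array minus its mean over the 6 arrays (horizontal axis), grouped by role, with control arrays in blue and deleted arrays in red, and circles, squares and triangles for replicates 1, 2 and 3. Red and blue points are mixed for most genes, and control replicate 3 (blue triangle) was the highest array for 11 and the lowest for 8 of the 35 members (31.4% and 22.9%, against 26.9% and 22.4% of all genes).

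Ldha turns pyruvate into lactate, and Pdk1 inhibits pyruvate dehydrogenase, which uses pyruvate in the mitochondria. Lactate leaves or enters through the carriers Slc16a1 and Slc16a3. Ldha read 13.41, 13.64 and 13.64 in control and 13.45, 13.80 and 13.47 in deleted replicates. The arrays of both groups were interleaved. The difference was 0.01, with a 95% interval from -0.36 to 0.39. Ldhb, whose subunit favours the conversion of lactate to pyruvate, read 11.78, 12.27 and 12.79 in control and 11.69, 12.38 and 11.80 in deleted replicates. Control replicate 3 was the highest array. The difference of -0.32 (SE 0.30) was -0.07 without that array and -0.57 without control replicate 1, and the other 3 Ldhb probe sets differed by -0.19 to -0.05.

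Pdk1, pyruvate dehydrogenase kinase, differed by 0.00 at its brightest probe set (95% interval -0.50 to 0.50) and by -0.17 to 0.20 at the other 3. Slc16a1, the carrier MCT1, read 10.69, 10.14 and 10.25 in control and 10.73, 10.29 and 10.73 in deleted replicates. Control replicate 1 stood at the level of the higher deleted arrays. The difference was 0.22 (SE 0.21), 0.11 without control replicate 2 and 0.39 without control replicate 1. Slc16a3, the export carrier MCT4 and a HIF target, differed by 0.20 (SE 0.23), and its highest array was control replicate 3 at 7.76. Without that array it differed by 0.44 (limma's unadjusted p = 0.0293).

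The 6 other hypoxia-response genes went in both directions, with 3 higher and 3 lower. Car9, carbonic anhydrase 9, a membrane enzyme that buffers acid outside hypoxic cells, read 7.55, 7.92 and 8.61 in control and 7.49, 7.36 and 6.84 in deleted replicates. Every deleted array lay below every control array, by 0.06 for the closest pair, 7.49 in deleted and 7.55 in control replicate 1. The difference was -0.80 (SE 0.30, 95% interval -1.51 to -0.09), with limma's unadjusted p = 0.0314 and adjusted p = 0.9999. In the unmoderated test the unadjusted p was 0.0943. The difference was -0.51 without control replicate 3 (limma's unadjusted p = 0.0795), -0.61 without deleted replicate 3 (0.104), -0.85 without control replicate 2 (0.0561) and -0.87 without deleted replicate 2 (0.0507). Without control replicate 1 it was -1.04 (unadjusted p = 0.0109) and without deleted replicate 1 it was -0.93 (0.0354). Car9 had 1 probe set, so no other probe set could be set beside it.

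Markers of some other cells were lower in the same samples as Car9. The 13 measured macrophage markers were all lower in deleted samples, at -0.33, -0.08 and -0.53 relative to their mean in deleted replicates 1 to 3 and at 0.15, 0.17 and 0.61 in control replicates. Both Car9 and this marker mean were highest in control replicate 3 and lowest in deleted replicate 3. Their mean levels ranged from 9.35 to 9.82 on control and from 8.68 to 9.12 on deleted arrays. The 12 fibroblast markers were likewise all lower, with levels of 9.24 to 9.65 on control and 8.75 to 8.92 on deleted arrays. The study had already called the macrophage marker C1qb and the fibroblast markers Col14a1 and Dpep1 as lower from these same arrays. The means of both sets are therefore not independent of that call. Of the 16 epithelial markers, 13 were lower, but their mean was highest in deleted replicate 2. Markers of pericytes and smooth muscle went the other way, with 8 of 10 higher, and 5 of 8 neutrophil and 6 of 8 lymphocyte markers were higher. The part of these other cells in the Car9 values was not tested. Of the 15 endothelial markers, 13 were higher and 2 lower in deleted samples, with a mean difference of 0.13. Their mean was lowest in control replicate 3 (-0.24) and deleted replicate 2 (-0.13). The mean of the HIF subunits was also lowest there (-0.30 and -0.27), and a relation was not tested.

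P4ha1, which encodes a catalytic subunit of the prolyl hydroxylase that matures collagen, was the member with the largest positive difference. It read 8.50, 8.78 and 8.49 in control and 9.38, 8.87 and 8.82 in deleted replicates. The groups did not overlap, with deleted replicate 1 well above the rest and the other deleted arrays just above control replicate 2. The difference was 0.43 (SE 0.20, 95% interval -0.03 to 0.89; limma's unadjusted p = 0.0624 and adjusted p = 0.9999), 0.25 without deleted replicate 1 and 0.54 without deleted replicate 3 (unadjusted p = 0.049). The dimmer P4ha1 probe set read 7.50, 6.54 and 6.46 in control and 8.72, 7.42 and 7.24 in deleted replicates, where control replicate 1 overlapped with the deleted arrays. It differed by 0.96 (SE 0.45), with deleted replicate 1 again the highest. The fibroblast markers, which include genes of collagens, had the opposite sign. P4ha2, the partner isoform, differed by 0.11 (SE 0.23).

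Ankrd37, a small HIF target, read 8.55, 8.90 and 8.61 in control and 9.15, 8.99 and 8.59 in deleted replicates. The first and second deleted arrays were the highest and the third lay among the controls. The difference was 0.23 (SE 0.19), and 0.11 without deleted replicate 1. Bnip3, a mitochondrial protein of mitophagy and cell death, differed by -0.09 with a 95% interval from -0.43 to 0.26. Higd1a, a hypoxia-induced mitochondrial protein, differed by -0.10 (SE 0.38), and control replicate 3 and deleted replicate 2 were the highest, at 11.87 and 11.79. The differences at the remaining 2 Higd1a probe sets were 0.12 and 0.06.

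**Figure D3:**
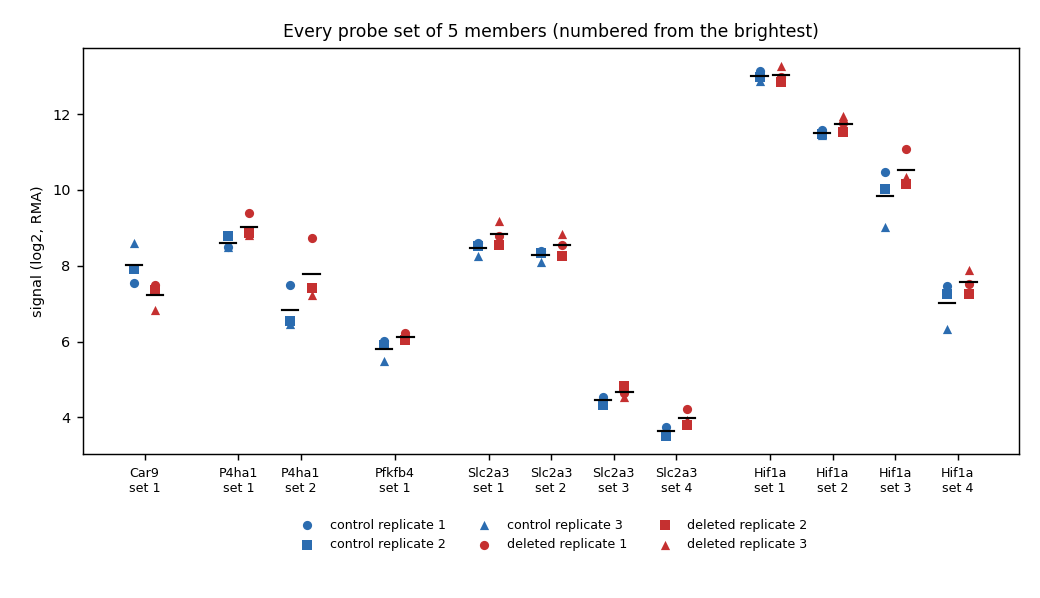
Log2 signal (vertical axis) on each array at every probe set of Car9, P4ha1, Pfkfb4, Slc2a3 and Hif1a, numbered from the brightest, with control arrays in blue, deleted arrays in red and black lines for the mean of 3 arrays. The arrays separate by group for Car9, the brightest P4ha1 set, Pfkfb4 and the dimmest Slc2a3 set, and the 4 Hif1a sets differ by 0.03 to 0.69.

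The HIF subunits themselves were close between the groups at their brightest probe sets. Hif1a read 13.14, 12.99 and 12.88 in control and 12.99, 12.85 and 13.26 in deleted replicates. The highest and the lowest array were both deleted ones. The difference was 0.03 with a 95% interval from -0.35 to 0.41. The other 3 Hif1a probe sets differed by 0.25, 0.69 and 0.54. The set at 0.69 read 10.48, 10.03 and 9.01 in control and 11.09, 10.16 and 10.35 in deleted replicates, with control replicate 3 far below the other 5 arrays. Hif1a mRNA does not show the level of the protein, which is set mainly by its breakdown.

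Epas1, which encodes the HIF-2 alpha subunit abundant in endothelium, read 13.74, 13.55 and 13.32 in control and 13.57, 13.32 and 13.78 in deleted replicates. Both groups spanned nearly the same range. The difference was 0.02 (95% interval -0.41 to 0.45). Arnt, the shared beta subunit, read 11.22, 10.96 and 10.21 in control and 11.45, 10.27 and 11.34 in deleted replicates. Control replicate 3 and deleted replicate 2 lay well below the other 4 arrays. The difference of 0.22 (SE 0.38) was -0.07 without control replicate 3 and 0.60 without deleted replicate 2, and the fourth Arnt probe set differed by -0.23. Hif3a, whose products include inhibitors of HIF, was read below the median signal on every array and differed by 0.06.

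Of the genes that restrain HIF, 1 was higher and 3 were lower in deleted samples. Egln1, the main oxygen sensor and itself a HIF target, read 11.78, 11.56 and 11.38 in control and 11.83, 11.82 and 11.73 in deleted replicates. The deleted arrays were tightly grouped at the top, and control replicate 1 lay among them. The difference was 0.22 (SE 0.15) and 0.12 without control replicate 3, and the second Egln1 probe set differed by 0.03. Egln2 read 10.36, 10.53 and 11.25 in control and 10.51, 10.69 and 10.19 in deleted replicates. Control replicate 3 was the outlying array. The difference of -0.25 (SE 0.26) was 0.02 without it.

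Egln3, the most strongly hypoxia-induced of the 3 hydroxylases in many cells, differed by -0.20 (SE 0.22), with 0.05 at its second probe set, and deleted replicate 3 was the lowest at 9.91. Vhl read 11.73, 11.74 and 11.26 in control and 11.33, 11.50 and 11.74 in deleted replicates. The groups covered nearly the same range. The difference was -0.05 with a 95% interval from -0.50 to 0.40.

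Averaged over the members, the arrays hardly differed. Taken as the deviation of each of the 35 members from its own mean, the arrays averaged -0.04, -0.05 and 0.05 in control and 0.06, 0.04 and -0.06 in deleted replicates 1 to 3. The third array of each group therefore had the opposite sign to the other 2. The group means were -0.01 with an SD of 0.05 and 0.01 with an SD of 0.07. The 21 measured glycolytic members differed by 0.05 on average and the 14 hypoxia and HIF members by -0.01. By role, the mean differences ran from -0.22 for the hexokinases to 0.21 for the glucose transporters. Without control replicate 3 the value of the hexokinases was 0.02. The phosphofructokinase group lay at -0.11 to -0.06 on control and -0.07 to 0.23 on deleted arrays. On the same scale the macrophage markers differed by -0.62 and the fibroblast markers by -0.59, and their arrays did not overlap between the groups. Both marker sets include genes that the study had called from these arrays.

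**Figure D4:**
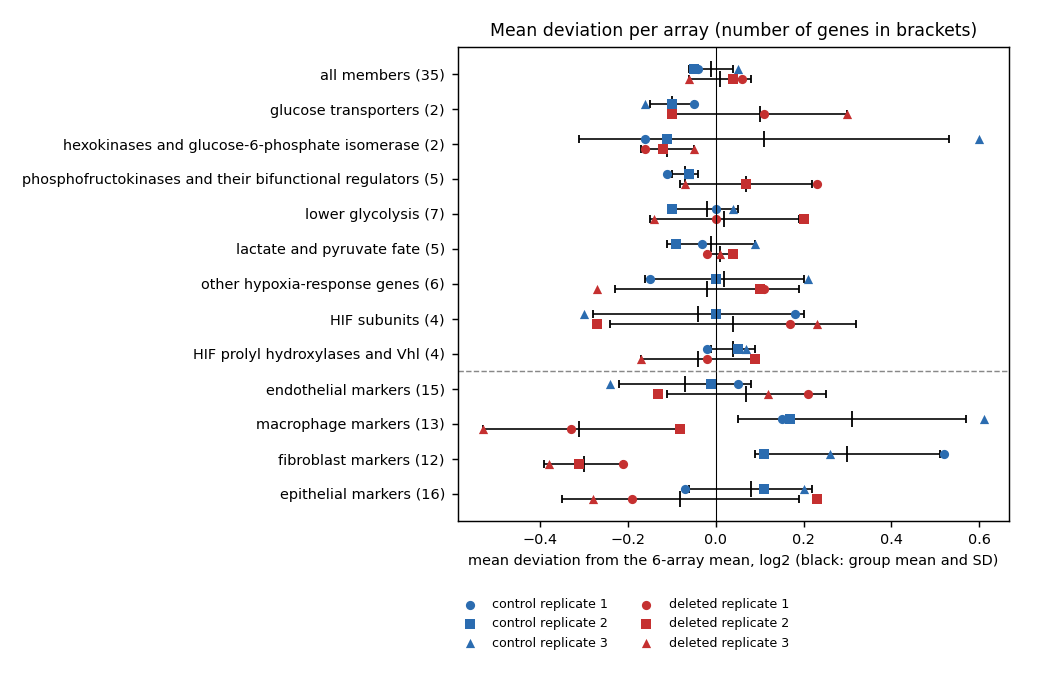
Mean deviation of log2 signal from the 6-array mean (horizontal axis) per array for all members, each role and 4 sets of cell type markers, with control arrays in blue, deleted arrays in red and group means and their SD in black. All members lie between -0.06 and 0.06, whereas macrophage and fibroblast markers lie from -0.53 to 0.61.

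Where a member had several probe sets, they often disagreed in sign. Of 22 such members, 11 had the same sign at every probe set, among them Slc2a1, Slc2a3, P4ha1, Pgk1, Ldhb and Hif1a. Among the 81 member probe sets, the size of the difference was over 0.5 at 5. Shares over all genes or probe sets were not computed for this size or for the agreement in sign. The groups did not overlap at 6 member probe sets, against 6.16% of all single-gene probe sets. These 6 were the sets named above for Car9, P4ha1, Pfkfb4 and Pfkp, the dimmest Slc2a3 set and the dim second set of Slc16a1, which differed by 0.15.

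Members with and without the ACGTG core both had differences of either sign, and the split was not tested. The 23 measured members with the core in a promoter window had a median difference of 0.03, with 14 positive and 9 negative. The 10 measured members with a window but without the core had a median of 0.07 and ran from -0.32 to 0.33. Of these, 6 were positive, 3 were negative and Pdk1 was at 0.00.

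Other genes of the pathway, from lists that did not include the members, gave a similar picture, and none was called after adjustment by limma. Among 39 further genes of glucose metabolism, 18 were positive and 21 negative, with a median of -0.03 and none at an unadjusted p under 0.05. The largest were Pdk4, a kinase that spares glucose, at 0.48 (SE 0.31), Eno3, the muscle enolase, at -0.42 (SE 0.32), the lactate carrier Slc16a7 at -0.36 (SE 0.16) and the insulin-responsive transporter Slc2a4 at 0.32 (SE 0.26). Slc16a7 was the one of these 4 without overlap, at 7.92 to 8.32 in control and 7.63 to 7.78 in deleted samples.

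Among 38 further HIF targets, 19 were positive and 19 negative, with a median of 0.01, and 1 in each direction had an unadjusted p under 0.05. Lox, the collagen cross-linking lysyl oxidase, read 9.83, 9.64 and 9.57 in control and 8.71, 9.17 and 9.35 in deleted replicates, a difference of -0.60 (SE 0.20, unadjusted p = 0.017). All deleted arrays were below the controls. Apln, the ligand of the apelin receptor and a tip cell gene, read 8.51, 8.53 and 8.50 in control and 8.89, 9.21 and 8.81 in deleted replicates, a difference of 0.45 (SE 0.15, unadjusted p = 0.02). Angptl4, Adm and Hilpda, which encode a lipase inhibitor, adrenomedullin and a lipid droplet protein, differed by 0.56, 0.50 and 0.48, each with overlap between the groups. Among 17 further HIF regulators, 7 were positive and 10 negative, and the largest difference was that of the growth inhibitor Tsc2 at -0.40 (SE 0.15, unadjusted p = 0.0347), which read 9.40 to 9.69 in control and 8.97 to 9.25 in deleted samples.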

How the data were processed

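The authors deposited 1 table of log2 values for 6 Affymetrix mouse genome arrays, 1 per sample, made with the Robust Multichip Average (RMA), which subtracts background, normalizes by quantiles and summarizes each probe set. The sources used here give no version of it. RMA compresses the differences of dim probe sets, and the signals of different probe sets do not order transcript abundance. The number of arrays limits the precision. No column of per-sample values was left unmapped.

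The table held 45101 probe sets, and after removal of 64 array controls the other 45037 all entered the test. The platform annotation named 1 gene for 34945 of them, and 34741 were matched by gene number to RefSeq. The groups were compared by lmFit and eBayes of limma 3.58.1 under R 4.3.3, two-sided and without covariates, with p-values adjusted by Benjamini-Hochberg over all tested probe sets at 0.05, after the steps had been tested on simulated data. The members, pathway lists and markers were chosen with earlier results of these data known. The labels describe separate samples, and p-values measure the spread between these arrays. Values on every array were given for the 12 members with the largest differences, those without overlap between the groups and 12 core genes. Eno1, listed among these core genes, could not be given because it had no probe set of its own. Apln and the second probe sets named without overlap were singled out after their values were seen, as were the promoters and probe sets shown for 4 and 5 genes. From each pathway list the 4 largest differences were eligible to be named.

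As alternatives, probe sets below the median signal were dropped or the prior was trended and robust. Array weights, centring and further quantile normalization were also used. The title number, which precedes the point in a sample title, served as a fixed or random block. The labels do not say what it stands for. Further alternatives were an unmoderated test, other ways to represent a gene and leaving out each array. Identical values made up at most 0.218% of any pair of arrays.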

Additional observations from a re-analysis of the deposited data

How the results depend on the processing

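No alternative called any probe set, or any member, at an adjusted p under 0.05 from limma, and with 1 array left out both counts stayed at 0. At an unadjusted p under 0.05 the count of 1 member became 4 with array weights (Slc2a3, Slc16a1, Slc16a3 and Car9). The weights gave control replicate 2 a value of 8.32 and the other arrays 0.38 to 0.992, so control replicate 2 dominated the control mean. The count became 0 with the unmoderated test and 2 with the mean of all probe sets of a gene, Car9 and P4ha1. The share of all genes under these alternatives is not given here, so the counts do not set the members apart. With 1 array left out the count ranged from 0 to 2, with Car9, Slc2a3, Slc16a3, Eno2 or P4ha1 among them. The median difference of 0.04 became 0.10 with the title number as a fixed block and ranged from 0.02 to 0.11 with 1 array left out. The mean difference became 0.09 with that block and ranged from 0.00 to 0.06 with 1 array left out. The upper end of both ranges came without control replicate 3. The cause of these shifts was not tested.

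Several signs were not stable. The title number as a fixed block rests on the 2 numbers found in both groups. With this block, Hk1 differed by 0.26, Ldhb by 0.01, Hif1a by -0.14, Epas1 by -0.20, Arnt by -0.23 and Egln2 by 0.16. Car9 differed by -0.32 with it (limma's unadjusted p = 0.173). The deviations of the arrays that share a title number correlated at 0.166 and -0.0171. Those of control and deleted arrays with unlike numbers ran from -0.438 to 0.371. With so few shared numbers these correlations cannot decide whether the numbers pair the samples, and the main test left the numbers out. Ldha differed by -0.07 with array weights. Vhl differed by 0.01 with the mean of its probe sets and by 0.07 at its probe set with the largest SD. With 1 array left out, Hk1 ranged from -0.39 to 0.13, Eno2 from -0.17 to 0.63, Ldha from -0.10 to 0.07, Hif1a from -0.08 to 0.12, Epas1 from -0.09 to 0.14, Arnt from -0.07 to 0.60, Egln2 from -0.42 to 0.02 and Vhl from -0.21 to 0.04. Car9, P4ha1, Pfkfb4 and Slc2a3 kept their signs in every alternative with a value, as did Slc2a1, Hk2, Pfkfb3, Pgk1, Slc16a1, Ankrd37 and Egln1. With 1 array left out, Car9 ranged from -1.04 to -0.51 and P4ha1 from 0.25 to 0.54. Likewise, Pfkfb4 ranged from 0.17 to 0.44 and Slc2a3 from 0.20 to 0.51. Slc2a1 ranged from 0.01 to 0.10, Hk2 from -0.43 to -0.08, Pfkfb3 from 0.07 to 0.31, Pgk1 from 0.04 to 0.27, Ldhb from -0.57 to -0.07, Slc16a1 from 0.11 to 0.39, Ankrd37 from 0.11 to 0.39 and Egln1 from 0.12 to 0.32. Pfkfb4 had no value with probe sets below the median signal dropped.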
